A study of Mus musculus with 12 samples.

Results

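The ductal and progenitor reprogramming genes are Prom1, Sox9, Sox4, Spp1, Krt19, Krt7, Epcam and Cd24a, 8 genes of the bile duct epithelium and of liver progenitor cells that were picked out by symbol among the 54839 features of the RNA-seq table. They were chosen as genes that injured hepatocytes can switch on, with their counts in injured and uninjured liver known, so every CCl4 against oil value given for them is a description without a test. The choice used no numerical threshold. Libraries came from tdTomato-positive (Tom+) and tdTomato-negative (Tom-) hepatocytes of male heterozygous p16-Tom mice, which carry p16-CreERT2 and R26-CAG-LSL-tdTomato-WPRE on a C57BL/6 background. In these mice, cells with p16 promoter activity at the time of tamoxifen (80 mg/kg) are permanently labelled, whatever they express later. Mice received corn oil or carbon tetrachloride (CCl4, 1 mL/kg), which injures hepatocytes around the central vein, for 4 weeks, and sorted live cells gave 4 groups of 3 libraries: Tom- oil, Tom+ oil, Tom- CCl4 and Tom+ CCl4. The labels do not state that the libraries of a group came from separate mice, so the p-values below measure the spread between libraries, which may be technical.

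Adult hepatocytes and cholangiocytes, the epithelial cells lining bile ducts, descend from a common fetal progenitor, the hepatoblast. In chronic injury some hepatocytes acquire ductal features, and SOX9 and osteopontin (Spp1) are the usual marks of this partial change, whereas the keratins KRT7 and KRT19 and the adhesion molecule EPCAM mark complete biliary differentiation. Notch signalling and the transcriptional coactivator YAP are the best known drivers of the ductal programme in hepatocytes.

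Total counts ranged from 37568700 to 75331500 per library, so that 3 counts corresponded to 0.0369 to 0.0829 counts scaled to library size (CPM). Between 66.2% and 71.1% of the whole values from 1 to 20 were even, so low counts may stand for fewer independent fragments than their number, which was not tested. The hepatocyte list of 10 genes summed to between 91269 and 133505 CPM, with all of its genes detected in every library. The tdTomato reporter was at 1316 to 1369 CPM in the Tom+ CCl4 libraries and at 120 to 263 CPM in the Tom- CCl4 libraries. In oil it went against the label in Tom- oil replicate 1 (1794 CPM) and in Tom+ oil replicate 2 (135 CPM), so the values of the members that rest on the split of the oil libraries, and the list counts, are also given without these 2 libraries.

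Upstream sequences are shown for Prom1 and Sox4, the members with the largest CCl4 against oil difference in Tom- hepatocytes. RefSeq (GRCm38.p6, the mm10 build of the files) gave starts for 5 of the 8 genes, and each window is the 250 bases before a start, read 5′ to 3′ on the strand of the gene, which is the minus strand for both. Capitals mark matches on either strand to the core letters of TEAD (GGAATG), the partner of YAP, of RBPJ (TGGGAA), the DNA-binding factor of Notch, of AP-1 (TGANTCA) or of SOX factors (ACAAAG).
Prom1, first start, chr5:44101737-44101986: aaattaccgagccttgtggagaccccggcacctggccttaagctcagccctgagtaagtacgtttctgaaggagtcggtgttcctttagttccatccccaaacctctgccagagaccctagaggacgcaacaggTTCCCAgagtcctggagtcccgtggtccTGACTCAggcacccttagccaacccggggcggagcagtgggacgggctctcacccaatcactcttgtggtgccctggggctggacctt
Prom1, second start, chr5:44094769-44095018: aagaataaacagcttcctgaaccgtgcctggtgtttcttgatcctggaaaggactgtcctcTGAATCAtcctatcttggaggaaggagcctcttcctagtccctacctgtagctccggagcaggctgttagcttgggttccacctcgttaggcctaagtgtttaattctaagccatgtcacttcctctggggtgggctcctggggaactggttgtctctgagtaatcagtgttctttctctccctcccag
Sox4, chr13:28953700-28953949: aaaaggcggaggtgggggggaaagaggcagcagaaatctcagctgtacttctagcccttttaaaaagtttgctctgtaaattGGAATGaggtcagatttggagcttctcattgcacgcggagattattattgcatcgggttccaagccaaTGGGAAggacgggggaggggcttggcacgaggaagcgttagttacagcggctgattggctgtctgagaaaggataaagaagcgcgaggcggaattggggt
The first Prom1 window held the RBPJ letters, on the opposite strand, 116 to 111 bases before the start and the AP-1 letters 88 to 82 bases before it, and the second held AP-1 letters 189 to 183 bases before the start. The second window lies further inside the gene than the first. The 30 bases after its start occur in 10 annotated transcripts, against 2 for the first start. These bases were sought at any position, so the numbers do not show how many transcripts begin at either start. Whether the second window acts as a promoter was not tested. The Sox4 window held the TEAD letters at 168 to 163 bases and the RBPJ letters at 100 to 95 bases before the start. Both Spp1 windows held the SOX letters, and the Krt7 and Epcam windows held none of the 4 motifs. Of all 32851 windows of the same length, 12.6% held the TEAD letters, 21.6% the RBPJ letters, 6.75% the AP-1 letters and 16.5% the SOX letters, none of the motifs overlapping in the windows shown.

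Prom1 (ENSMUSG00000029086, mm10 chr5:43993620-44102032), which encodes the pentaspan membrane glycoprotein CD133 of progenitor cells and apical membranes, was nearly undetected without injury and present in every injured library. Rounded counts were 2, 0 and 0 in Tom- oil and 2, 0 and 0 in Tom+ oil. They were 132, 331 and 198 in Tom- CCl4 and 518, 628 and 349 in Tom+ CCl4. Every CCl4 library thus lay far above every oil library, whichever fraction an oil library is assigned to. The ratio of summed counts, scaled for depth, was 372 in Tom- hepatocytes (95% interval 103 to 3077) and 694 in Tom+ hepatocytes (192 to 5737), with intervals that cover counting error only. With counts halved, as suits values that are mostly even, the intervals widened to 66.2 to 14708 and 124 to 27471. Among the 17121 genes that passed the expression filter, Prom1 had the 2nd highest fitted log2 fold change of CCl4 against oil in both fractions, a description only, since it passed the filter through its CCl4 counts and its fitted value depends on the prior count. The antisense gene Gm16401, which overlaps Prom1, had 0 counts in the oil libraries and at most 12.5 in a CCl4 library, and Gm42716, which overlaps it on the same strand, had 6 counts in Tom+ CCl4 replicate 3 and 0 elsewhere.

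**Figure D1:**
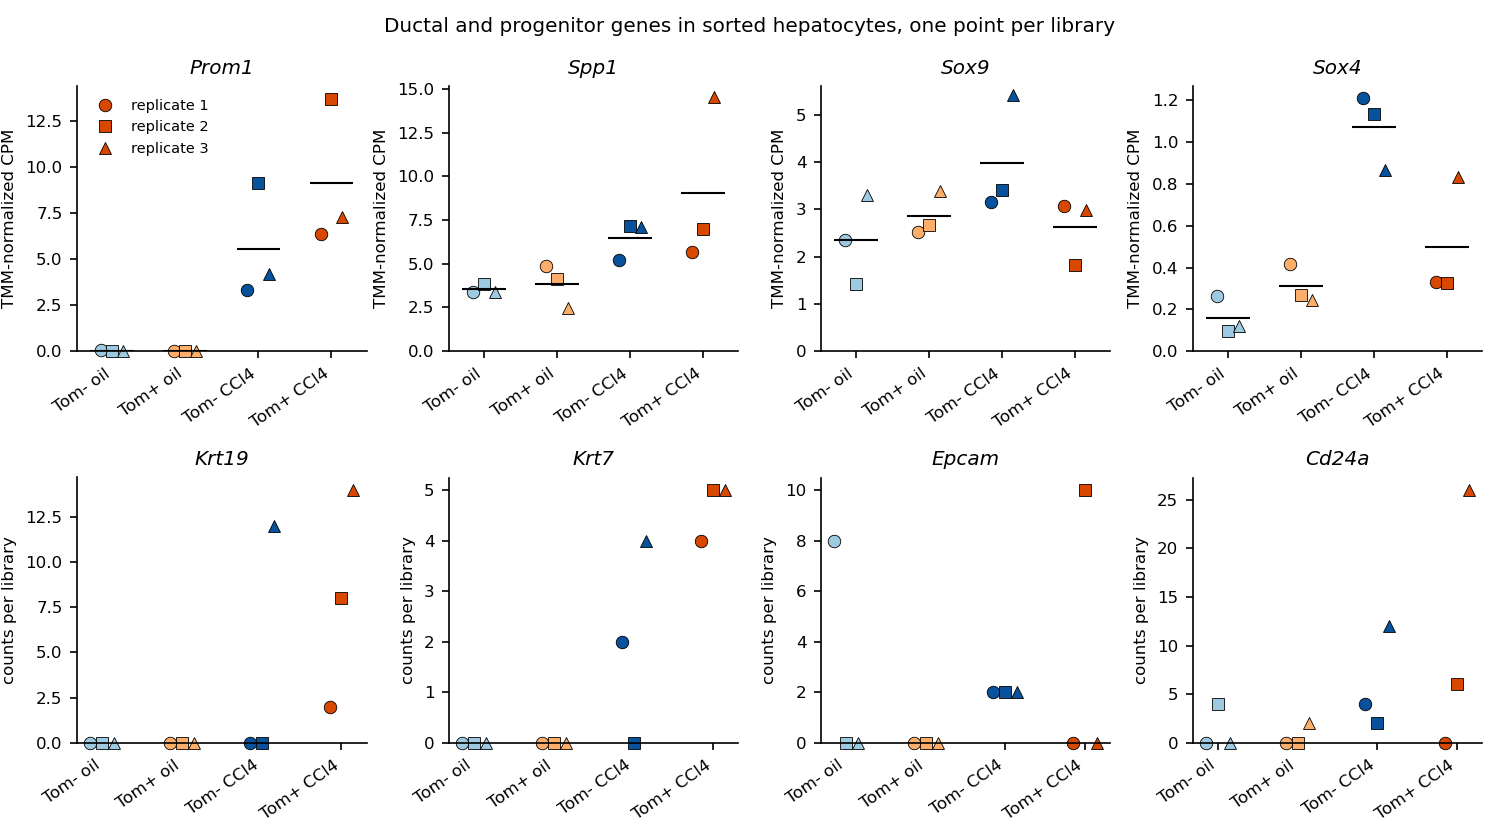
Each point is one library, with the replicate number as its shape; the upper panels show TMM-normalized CPM with the group mean as a line, and the lower panels show rounded counts, all against the 4 groups on the horizontal axis. Prom1 stood at 0 to 2 counts in oil and at 3.34 to 13.7 CPM in CCl4, Sox4 was highest in Tom- CCl4, and no lower panel exceeds 26 counts in any library.

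The transcription factor genes Sox9 and Sox4 had another pattern, with their highest group mean in Tom- CCl4. Sox9 (ENSMUSG00000000567, chr11:112782224-112787760), the regulator of bile duct formation, was detected in all libraries, at 2.35, 1.41 and 3.31 CPM in Tom- oil and 2.51, 2.67 and 3.38 CPM in Tom+ oil. It was at 3.16, 3.40 and 5.41 CPM in Tom- CCl4 and at 3.06, 1.81 and 2.99 CPM in Tom+ CCl4. The fitted log2 fold change of CCl4 against oil was 0.76 in Tom- and -0.11 in Tom+ hepatocytes, and the CCl4 and oil libraries overlapped in both fractions.

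Sox4 (ENSMUSG00000076431, chr13:28948919-28953713), a SOX factor that acts with Sox9 in the developing bile duct, had rounded counts of 10, 5 and 6 in Tom- oil and 29, 14 and 10 in Tom+ oil. In CCl4 its counts were 48, 41 and 41 in Tom- and 27, 15 and 40 in Tom+ hepatocytes. In CPM all Tom- CCl4 libraries (0.866 to 1.21) lay above all oil libraries (0.0969 to 0.419), and 36.0% of all tested genes likewise had no overlap between Tom- CCl4 and Tom- oil, whereas the Tom+ CCl4 libraries (0.327 to 0.835) overlapped those of Tom+ oil. The log2 fold change of CCl4 against oil was 2.75 in Tom- and 0.65 in Tom+ hepatocytes, and the latter was 0.07 without Tom+ CCl4 replicate 3. Gm26735, a noncoding gene antisense to Sox4, had 1.5 to 9.5 counts in oil, 18 to 21 in Tom- CCl4 and 9 to 13 in Tom+ CCl4. The libraries were strand-specific, but whether the counting used the strand is not given in the sources used here, and without it reads of the pair cannot be told apart.

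Spp1 (ENSMUSG00000029304, chr5:104435118-104441050) encodes the secreted matrix protein osteopontin and had the highest level of the members per length. As abundance scaled for length and depth (TPM) it was at 4.63, 5.59 and 4.98 in Tom- oil, 7.18, 5.84 and 3.44 in Tom+ oil, 7.11, 9.72 and 9.08 in Tom- CCl4 and 9.11, 11.1 and 21.8 in Tom+ CCl4. Every CCl4 library of a fraction lay above every oil library of the same fraction, where 36.0% of all tested genes in Tom- and 29.3% in Tom+ had no overlap in either direction. The log2 fold change of CCl4 against oil was 0.88 in Tom- and 1.23 in Tom+ hepatocytes. For comparison, in the Tom+ CCl4 libraries Prom1 was at 2.36 to 5.02 TPM, Sox9 at 1.15 to 1.97 TPM and Sox4 at 0.180 to 0.430 TPM, so the levels of these 4 genes did not overlap there. Deposited Spp1 values were not whole in 9 of 12 libraries, and Gm42793, which overlaps it on the same strand, had 2.5 to 34.25 counts. Macrophages also make osteopontin: the macrophage list of 10 genes summed to 15.5 to 75.3 CPM in Tom- oil, 23.8 to 114 in Tom+ oil, 91.8 to 117 in Tom- CCl4 and 48.2 to 134 in Tom+ CCl4, with its highest value in the library with the highest Spp1, Tom+ CCl4 replicate 3. Tom+ oil replicate 3, with a macrophage sum of 114 CPM, had the lowest Spp1 of all libraries, at 3.44 TPM. At least 9 of the 10 macrophage genes were detected in every library, and the part of these cells in the Spp1 values was not tested.

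The markers of complete biliary differentiation stayed near the limit of detection. Krt19 (ENSMUSG00000020911, chr11:100140810-100148665), a keratin of all bile ducts, had 0 counts in the 6 oil libraries, 0, 0 and 12 counts in Tom- CCl4 and 2, 8 and 14 counts in Tom+ CCl4. Krt7 (ENSMUSG00000023039, chr15:101411043-101430313), its ductal companion, had 0 counts in the 6 oil libraries, 2, 0 and 4 counts in Tom- CCl4 and 4, 5 and 5 counts in Tom+ CCl4. Set against a chosen level of 3 counts per oil library, the mean CPM in Tom+ CCl4 was 2.82-fold that level for Krt19 and 1.51-fold for Krt7. In Tom- CCl4 it was 1.28-fold and 0.680-fold. These folds are not lower bounds on the change, as they carry no counting error.

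Epcam (ENSMUSG00000045394, chr17:87635979-87651129), an epithelial adhesion molecule absent from adult hepatocytes, had 8, 0 and 0 counts in Tom- oil, 0 in the 3 Tom+ oil libraries, 2, 2 and 2 in Tom- CCl4 and 0, 10 and 0 in Tom+ CCl4. It was not separated by treatment or fraction at this depth. Cd24a (ENSMUSG00000047139, chr10:43578284-43584265), a glycosylated surface protein of progenitor cells and of many leukocytes, had 0, 4 and 0 counts in Tom- oil, 0, 0 and 2 in Tom+ oil, 4, 2 and 12 in Tom- CCl4 and 0, 6 and 26 in Tom+ CCl4. Its ratio of summed counts in CCl4 against oil was 5.06 in Tom- (1.67 to 20.6) and 14.9 in Tom+ hepatocytes (3.79 to 128), while single libraries of the groups overlapped in both fractions. With counts halved, the intervals widened to 1.05 to 48.2 and 2.31 to 623. They cover counting error only, and most of the Tom+ CCl4 counts came from replicate 3. The leukocyte list of 10 genes summed to 1.01 to 4.75 CPM in the oil libraries and 2.34 to 4.63 CPM in the CCl4 libraries, and its part in the Cd24a counts was not tested. None of these 4 genes passed the expression filter when all 12 libraries were used, so no fitted value is given for them. Krt19 and Cd24a passed it without the 2 oil libraries whose reporter went against the label, and neither was called there. Member counts under other filters or with fewer libraries can therefore rest on more than the other 4 members.

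Markers of the mesothelium, the keratin-rich cell layer covering the liver, had their highest counts in the libraries with the most Krt19. All 8 mesothelial genes were detected in Tom- CCl4 replicate 3, Tom+ CCl4 replicate 2 and Tom+ CCl4 replicate 3, where they summed to 2.32, 2.36 and 3.49 CPM and where Krt19 had 12, 8 and 14 counts. In the other 9 libraries at most 5 of the 8 were detected, with sums of 0.42 to 1.44 CPM that came mostly from Lrrn4, and Krt19 had at most 2 counts. Msln, which encodes mesothelin, had 8, 16 and 34 counts in those 3 libraries, at most 2 in a further CCl4 library and 0 in oil. Their part in the Krt19, Krt7 and Cd24a counts was not tested. Of the 20 genes of the cholangiocyte list, 11 had at most 10 counts in any library, among them the channel Cftr and the secretin receptor Sctr, and the protease gene Mmp7 had 0 counts in all 12 libraries. The list as a whole summed to 39.4 to 43.97 CPM in Tom- oil, 38.4 to 48.4 in Tom+ oil, 40.8 to 51.8 in Tom- CCl4 and 33.9 to 36.3 in Tom+ CCl4.

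**Figure D2:**
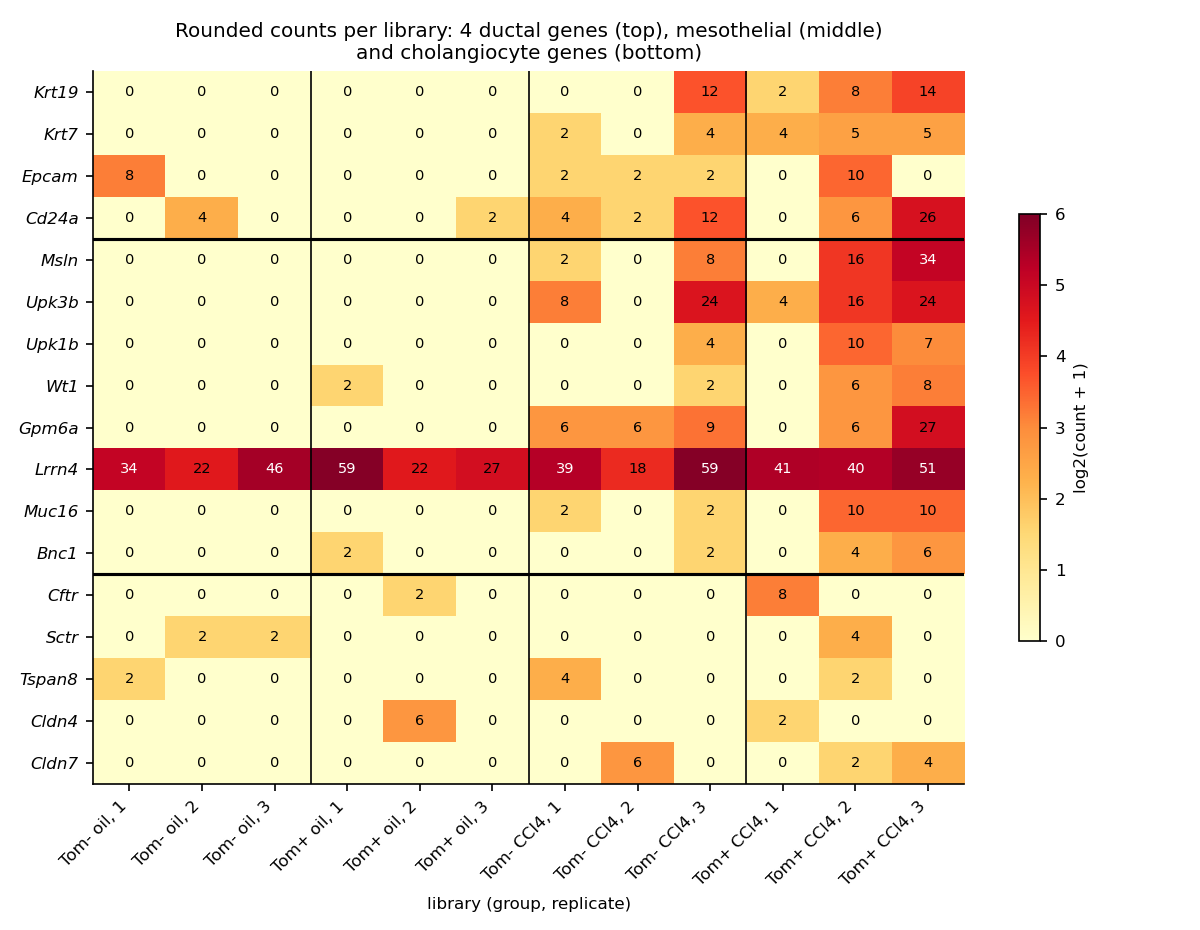
Rounded counts are printed in each cell for the 12 libraries (horizontal) and for 4 members, 8 mesothelial genes and 5 cholangiocyte genes (vertical), coloured by log2(count + 1) with colours saturating at 6. Krt19 was above 2 counts in 3 libraries, and these are the libraries in which all 8 mesothelial genes were detected, whereas the 5 cholangiocyte genes shown had at most 8 counts anywhere.

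The comparison of Tom+ with Tom- hepatocytes sets p16-labelled cells against unlabelled cells sorted under the same treatment, and it was not used to choose the members. The paper reports that labelled cells lay mostly around the central vein after CCl4, and that its bulk libraries could not separate label from position. Label and lobule position thus cannot be told apart in the fraction values of the members or of the lists below. Within CCl4, 0 of the 4 members that passed the filter were called by edgeR's quasi-likelihood test (both an adjusted p under 0.05 and a log2 change of over 0.75 up or down), against 1.96% of all tested genes. At an unadjusted p under 0.05 there was 1 member, Sox4, beside 22.8% of all tested genes. The groups did not overlap for Sox9 and Sox4, and this held for 28.7% of all tested genes.

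Prom1 was at 3.34, 9.15 and 4.18 CPM in Tom- CCl4 and at 6.38, 13.7 and 7.29 CPM in Tom+ CCl4. The level was higher in Tom+ in 3 of 3 same-numbered pairs, although the groups overlapped because replicate 2 was the highest in both fractions. The log2 fold change was 0.72 (SE 0.42, edgeR adjusted p = 0.346). Same-numbered libraries deviated together across genes, with correlations of 0.504 to 0.707 in CCl4, and in a fit that took the number as a replicate block the log2 fold change was 0.77 (SE 0.17, edgeR adjusted p = 0.00968), past the threshold. Leaving out a library in the fit without the block gave log2 values of 0.30, without Tom+ CCl4 replicate 2, to 1.28, without Tom- CCl4 replicate 2, and the adjusted p over all alternatives ran from 0.00968 to 0.784.

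Sox4 and Sox9 lay in the other direction. Sox4 was lower in Tom+ CCl4 in 3 of 3 pairs, with a log2 fold change of -1.11 (SE 0.48, edgeR adjusted p = 0.186, with 0.0852 to 0.433 over the alternatives). Sox9 was likewise lower in 3 of 3 pairs, by a log2 fold change of -0.60 (SE 0.31, edgeR adjusted p = 0.268, with 0.0913 to 0.611 over the alternatives). Neither passed the threshold with the block, where the adjusted p was 0.0995 for Sox4 and 0.0913 for Sox9 by the same test. Spp1 had a log2 fold change of 0.48 (edgeR adjusted p = 0.414), higher in 2 of 3 pairs, and it was -0.04 without Tom+ CCl4 replicate 3.

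Liver endothelial genes had their highest levels in the same group as Sox4. The endothelial list of 10 genes, all detected in every library, summed to 329 to 354 CPM in Tom- CCl4 and 168 to 227 CPM in Tom+ CCl4, against 129 to 197 in Tom- oil and 145 to 240 in Tom+ oil. Of its 10 genes 6 were lower in Tom+ than in Tom- CCl4 hepatocytes, where 1.96% of all tested genes were called in either direction. Among them were the junctional cadherin Cdh5 (log2 fold change -0.83) and the sinusoidal receptor Gpr182 (-1.01). The count was 0 without Tom+ CCl4 replicate 2 and 1 without Tom+ CCl4 replicate 1 or without Tom- CCl4 replicate 1 or 2. It was 3 without Tom- CCl4 replicate 3, and 4 at most with any library left out. In Tom- hepatocytes 10 of 10 were higher in CCl4 than in oil (9 without the oil libraries of unmatched reporter, Lyve1 being lost), and in Tom+ hepatocytes 0 of 10 were. The shares of all tested genes called higher were 6.33% in Tom- and 2.9% in Tom+. Fewer cells of a type and less RNA per cell cannot be told apart in bulk libraries, and the part of endothelial RNA in the Sox4 and Sox9 values was not tested.

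In oil 0 of 4 members were called, as were 0% of all genes (0 of 17121, with 1198 at an unadjusted p under 0.05, 17 called by DESeq2 and 40 with the block), and 0 members had an unadjusted p under 0.05. Sox4 was higher in Tom+ in 3 of 3 oil pairs (log2 fold change 0.99, edgeR adjusted p = 0.768) and so was Sox9 (0.27, edgeR adjusted p = 0.901), but the groups overlapped for all 4 members, as they did not for 11.7% of tested genes. The reporter was high in both libraries of oil replicate 1 and low in both of replicate 2, so only replicate 3 was split by reporter. Spp1 differed by a log2 fold change of 0.13. Without Tom- oil replicate 1 and Tom+ oil replicate 2, whose reporter went against the label, the log2 fold changes were 1.59 for Sox4, 0.30 for Sox9 and 0.03 for Spp1, and none was called.

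The difference of the Tom+ against Tom- contrast between CCl4 and oil tests whether fraction and treatment interact. It called 0 of 4 members, against 1.17% of all tested genes, and 1 member, Sox4, had an unadjusted p under 0.05, beside 18.6% of all tested genes. The difference was -2.10 on the log2 scale for Sox4 (SE 0.72, edgeR adjusted p = 0.145) and -0.88 for Sox9 (SE 0.44, edgeR adjusted p = 0.309), with block values of -2.21 (edgeR adjusted p = 0.0667) and -0.93 (edgeR adjusted p = 0.0795). Without the 2 oil libraries whose reporter went against the label it was -2.71 for Sox4 and -0.91 for Sox9, neither past the threshold. For Spp1 it was 0.35 (edgeR adjusted p = 0.732).

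**Figure D3:**
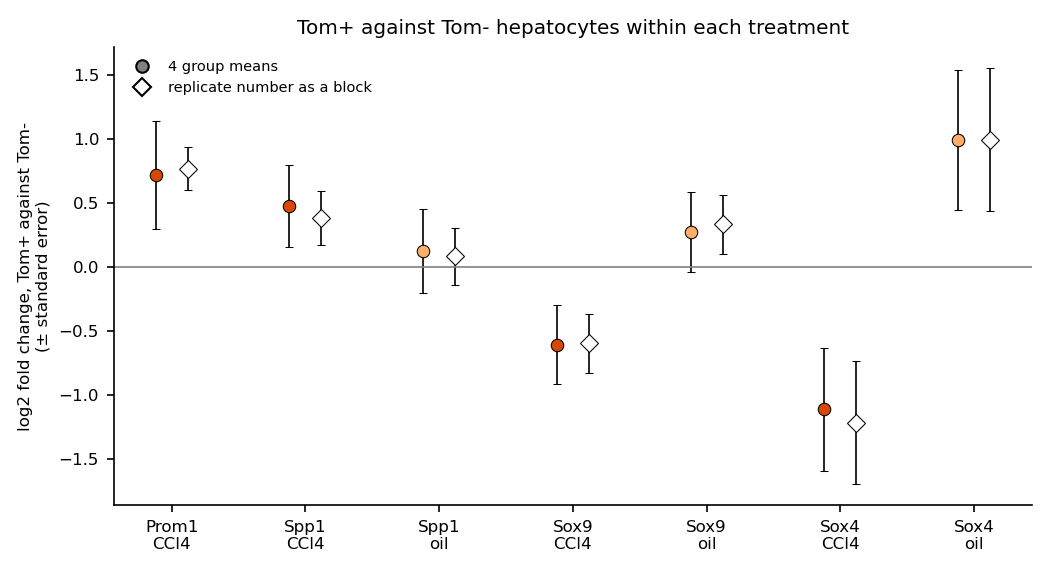
Log2 fold change of Tom+ against Tom- hepatocytes (vertical, with the standard error as bars) for each member and treatment (horizontal), from the fit of group means (filled circles) and from the fit with the replicate block (open diamonds). Prom1 in CCl4 kept its value of about 0.7 to 0.8 with a smaller error under the block, and Sox9 and Sox4 lay below 0 in CCl4 and above 0 in oil; Prom1 in oil is left out because its counts did not exceed 2.

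As a description of CCl4 against oil, the rule of adjusted p and fold change was met by 2 of the 4 members in Tom- hepatocytes (Prom1 and Sox4), where 7.92% of all genes met it and 6.33% met it with higher levels in CCl4. In Tom+ hepatocytes it was met by 2 (Prom1 and Spp1), where 5.24% of all genes met it and 2.9% with higher levels in CCl4. The count in Tom+ was 1 when Tom+ oil replicate 1, 2 or 3 or Tom+ CCl4 replicate 3 was left out. The median log2 fold change of the 4 was 1.81 in Tom- and 0.94 in Tom+, against 0.00 for all tested genes in each, and the Tom- and Tom+ contrasts use different libraries. Because the members were chosen with these counts known, neither the counts nor the medians can test the members against all genes. Without the 2 oil libraries whose reporter went against the label, the log2 fold change in Tom- was 11.15 for Prom1, 3.26 for Sox4, 0.85 for Spp1 and 0.76 for Sox9, and in Tom+ it was 8.80, 0.55, 1.29 and -0.15. Spp1 in Tom+ no longer met the rule there, nor with the replicate block (1.15), although its fold change was similar, and the values of Prom1 depend on the prior count because its oil counts were 0 to 2.

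Markers of stellate cells, the collagen-producing cells of the injured liver, moved with CCl4 in both fractions. The stellate list of 10 genes, of which at least 8 were detected in every library, summed to 7.46 to 18.1 CPM in Tom- oil and 70.1 to 89.7 CPM in Tom- CCl4, and to 8.74 to 22.9 CPM in Tom+ oil and 51.5 to 106 CPM in Tom+ CCl4. Of the 8 genes tested, 6 were higher in CCl4 in Tom- and 5 in Tom+ hepatocytes, among them the collagen gene Col3a1 (log2 fold change 3.71 and 2.74). Among all tested genes 6.33% and 2.9% were higher. Without the 2 oil libraries whose reporter went against the label, all tested stellate genes but Des were called higher in Tom-. In Tom+ all but Col1a2, Dcn and Des were. The part of stellate cells in the CCl4 against oil values of the members and of the lists below was not tested.

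Of the 20 genes of the wider cholangiocyte list 9 passed the filter, and in Tom- hepatocytes 1 was higher in CCl4 than in oil and 1 lower. Among all tested genes 7.92% were called there in either direction, and 5.24% in Tom+ hepatocytes. Bicc1, an RNA-binding protein of tubular epithelia, was at 0 to 0.123 CPM in Tom- oil and 0.253 to 0.887 CPM in Tom- CCl4 (log2 fold change 3.31, SE 1.05, edgeR adjusted p = 0.0469). Krt23, an acidic keratin, fell from 1.47 to 5.85 CPM in Tom- oil to 0.303 to 1.27 CPM in Tom- CCl4 (log2 fold change -2.62, SE 0.79, edgeR adjusted p = 0.0453). In Tom+ hepatocytes Krt23 was the 1 gene called, with a log2 fold change of -3.84 (edgeR adjusted p = 0.0226). The calls depended on single libraries. In Tom- hepatocytes the count of 2 became 0 without Tom- oil replicate 1 or 2 or Tom- CCl4 replicate 3, and 1 without Tom- CCl4 replicate 1. It was also 0 without the oil libraries of unmatched reporter. In Tom+ hepatocytes the count of 1 became 0 without Tom+ oil replicate 1 or 2, without Tom+ CCl4 replicate 1 or 3, or without those oil libraries.

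Between the fractions in CCl4, Wfdc2, a secreted protease inhibitor of epithelia, was the cholangiocyte list gene called, at 15.1, 10.5 and 12.7 CPM in Tom- and 6.70, 4.28 and 6.10 CPM in Tom+ hepatocytes. The groups did not overlap, and the log2 fold change was -1.16 (SE 0.21, edgeR adjusted p = 0.00899, with 1.2e-05 to 0.0472 over 13 alternatives). Krt23 was also called with the block (log2 fold change -2.03, edgeR adjusted p = 0.0106).

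Of the 16 genes of the YAP and Notch list 14 passed the filter. In Tom- hepatocytes 3 were higher in CCl4 than in oil and 0 lower, namely the YAP target Ccn1 (log2 fold change 0.82, SE 0.20) and the Notch targets Hes1 (1.41, SE 0.36) and Nrarp (1.51, SE 0.37). In Tom+ hepatocytes 2 were higher and 0 lower, Ccn1 (0.87, SE 0.20) and the Notch ligand Jag1 (0.96, SE 0.24). The shares of all tested genes called higher were 6.33% in Tom- and 2.9% in Tom+ hepatocytes. The medians over the 14 genes were 0.60 in Tom- and 0.20 in Tom+. The Tom- count was 1 without Tom- oil replicate 2 or Tom- CCl4 replicate 2, 0 without Tom- CCl4 replicate 3 and 5 without Tom- oil replicate 3, and the Tom+ count was 0 without Tom+ oil replicate 1 or Tom+ CCl4 replicate 3 and 1 without Tom+ oil replicate 2 or Tom+ CCl4 replicate 1 or 2. Without the oil libraries of unmatched reporter all 3 named calls were lost in Tom-, where Hey1 alone was called, and in Tom+ Ccn1 alone was called. Between the fractions in CCl4 0 of the 14 were called, and 1, the YAP target Ccn2, with the block (log2 fold change -0.89, edgeR adjusted p = 0.0244). Among all tested genes 1.96% were called there, and 3.98% with the block.

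Of the 12 genes of the fetal and progenitor list 9 passed the filter, and 2 were higher in CCl4 in Tom- and 5 in Tom+ hepatocytes, with 0 lower, and the difference between these counts was not tested. Among all tested genes 6.33% were higher in Tom- and 2.9% in Tom+ hepatocytes. Dlk1, a Notch-like surface protein of hepatoblasts, had 0 counts in all 6 oil libraries, 10, 4 and 18 in Tom- CCl4 and 201, 67 and 34 in Tom+ CCl4. Every Tom+ CCl4 library lay above every Tom- CCl4 library, with a log2 fold change of 2.62 (SE 0.62, edgeR adjusted p = 0.0411). With the block it was 2.52 (edgeR adjusted p = 0.0150), but the call in the fit without the block was lost when any of 5 of the 6 CCl4 libraries was left out, with log2 values of 2.1 to 3.07 and an adjusted p of up to 0.162, Tom+ CCl4 replicate 3 being the exception.

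Kit, the stem cell factor receptor, was at 1.53 to 1.88 CPM in Tom- oil, 1.03 to 2.5 in Tom+ oil, 5.22 to 6.76 in Tom- CCl4 and 4.34 to 6.24 in Tom+ CCl4. It rose in both fractions, by a log2 fold change of 1.83 (SE 0.27, edgeR adjusted p = 0.00109) in Tom- and 1.65 (SE 0.27, edgeR adjusted p = 0.00237) in Tom+ hepatocytes. In Tom+ hepatocytes the Wnt receptor partner Lgr5 (log2 fold change 3.21, SE 0.81), the TWEAK receptor Tnfrsf12a (1.07, SE 0.30) and the fetal serum protein Afp (0.94, SE 0.20) also rose. Lgr5 is normally highest around the central vein, as is Cyp2e1. Mean Cyp2e1 was 1051 CPM in Tom+ oil and 2314 CPM in Tom+ CCl4, against 2331 CPM in Tom- oil and 1163 CPM in Tom- CCl4. The part of lobule position in the CCl4 against oil values of this list was not tested. The Tom+ count of 5 was 3 without Tom+ oil replicate 1 or Tom+ CCl4 replicate 2 and 2 without Tom+ CCl4 replicate 3, and at most 4 with any Tom+ library left out. Without the oil libraries of unmatched reporter it was 4, with Tnfrsf12a (0.998) no longer called and Lgr5 at 4.50, and the Tom- count stayed at 2. Lgr5 was at 2.07, 3.84 and 7.14 CPM in Tom- CCl4 and 10.02, 10.06 and 14.9 CPM in Tom+ CCl4, which was not called without the block (log2 fold change 1.41, edgeR adjusted p = 0.297) and was called with it (1.54, edgeR adjusted p = 0.000888).

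**Figure D4:**
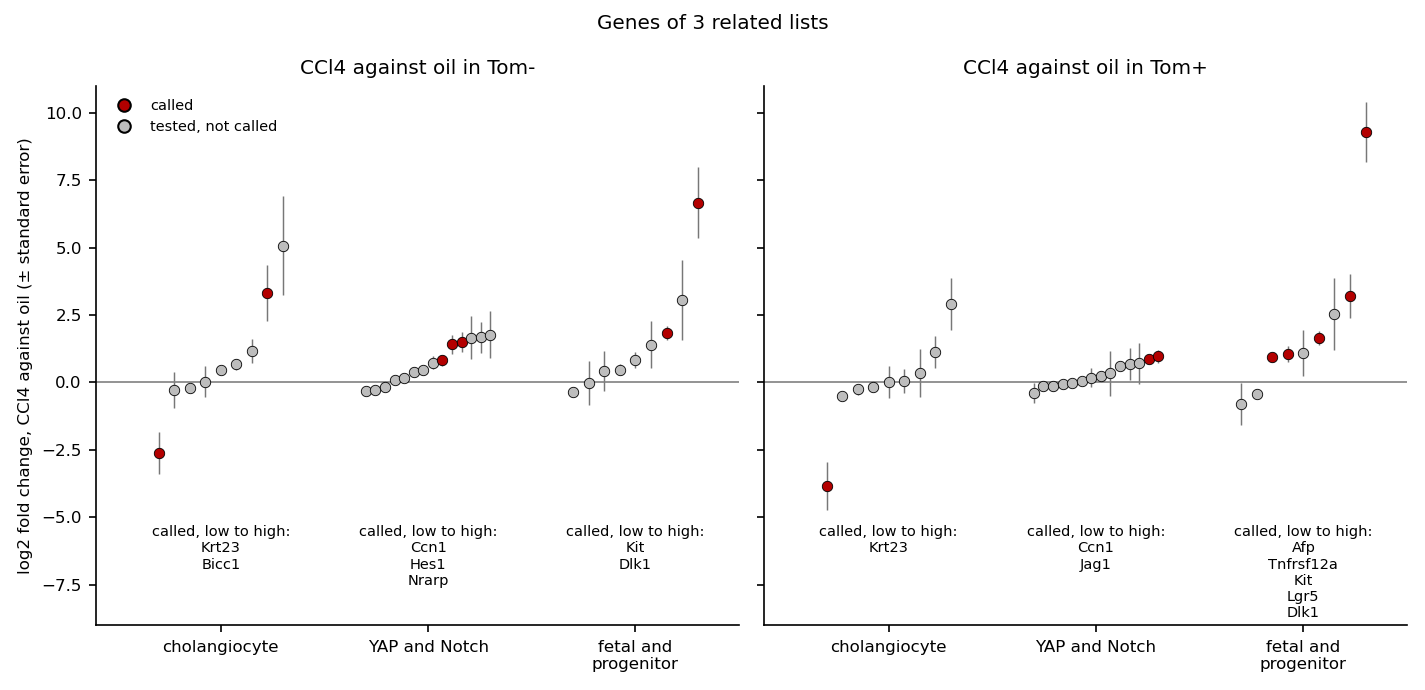
Log2 fold change of CCl4 against oil (vertical, with the standard error as bars) for each tested gene of 3 lists (horizontal), in Tom- (left) and Tom+ hepatocytes (right); red points were called and are named below, and grey points were tested and not called. Krt23 was the lowest point in both panels at -2.62 and -3.84, and Dlk1 was the highest at 6.67 and 9.28, values that depend on the prior count because its oil libraries were at 0.

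For each tested member, the genes closest in pattern over the 12 libraries were found by the root mean square distance between log2 CPM profiles scaled to unit SD, among 13058 genes with a mean of at least 1 CPM. Closest to Prom1 were Steap2, a metalloreductase (distance 0.166), at 9.73 to 10.8 CPM in oil and 24.9 to 28.1 CPM in CCl4, and Mtmr11, of the myotubularin family (0.189), at 0.776 to 1.59 CPM in oil and 9.30 to 13.3 CPM in CCl4. Closest to Spp1 were the kinase gene Dapk2 (0.242) and Mfge8 (0.333), which encodes a bridging protein of phagocytosis. Closest to Sox4 were Egfl7, a secreted endothelial protein (0.271), and Rabl6 (0.278), and closest to Sox9 were Galnt15 (0.372) and Papolg (0.432). Prom1 thus had the nearest neighbours of the 4 members and Sox9 the most distant.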

How the data were processed

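The authors deposited expected counts per feature (mm10), not normalized, with feature positions and lengths. They used fastp (v0.23.2) for read quality and HISAT2 (v2.1.0) for alignment, and named DESeq2 (v1.42.1) for differential expression. Libraries were strand-specific, and the authors used TPMcalculator for TPM, which were not used here. The program behind the deposited counts, its strand setting and the annotation release are not given in the sources used here. Between 30.4% and 32.9% of non-zero values were not whole, so counts were rounded, whereas whole counts had been assumed when the test was chosen.

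Symbols were matched for 54723 of 54839 features (99.8%). The analysis used edgeR (v4.0.16) in R (v4.3.3), with TMM normalization, filterByExpr (17121 genes, 4 of the 8 members) and the robust quasi-likelihood test in one fit of 12 libraries with 4 group means. Genes were called at a Benjamini-Hochberg adjusted p under 0.05 over all tested genes and a log2 fold change beyond 0.75. TPM was computed from the rounded counts and the deposited feature lengths. Count ratios carry exact 95% intervals, and a fold against libraries at 0 used a level of 3 counts per library. Tests were checked on simulated data. The replicate block used the treatment and replicate number as one term for Tom+ against Tom-, where same-numbered libraries correlated at 0.504 to 0.707 in CCl4 and 0.348 to 0.549 in oil, and the number alone for CCl4 against oil, where they did not all exceed 0.1.

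Members and gene lists were chosen with earlier results of these data known. Besides the members, genes were named as up to 4 called genes per list and contrast with a mean of at least 1 CPM, the 2 nearest in pattern, and defining markers of other cell types. Dlk1, Bicc1, Nrarp, Hey1, Lyve1 and the genes named with the block fall outside that rule and were chosen after their values were seen. Alternatives were RLE size factors, other filters, DESeq2 (v1.42.0), the block, the 6 libraries of one treatment, the fractions averaged, the oil libraries with a matching reporter and leaving out each library, and halved counts were added after seeing the data. The plots were made in matplotlib (v3.10.9) under Python (v3.11.15).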

Additional observations from a re-analysis of the deposited data

Results flagged for a closer look

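Sox4 and Sox9 lay in opposite directions between the fractions under the 2 treatments. Tom+ libraries were below their same-numbered Tom- libraries in 3 of 3 pairs with CCl4, and above them in 3 of 3 with oil. The difference between the treatments was tested and did not pass the threshold, at -2.10 on the log2 scale for Sox4 (edgeR adjusted p = 0.145) and -0.88 for Sox9 (edgeR adjusted p = 0.309). The oil pairs include the 2 libraries whose reporter went against the label, without which the differences were -2.71 and -0.91.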

How the results depend on the processing

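The count of members called between the fractions in CCl4 was 0, and 1 (Prom1) with the replicate block. For CCl4 against oil in Tom+ hepatocytes, a description only, the count of members was 2. It was 1 without an expression filter, with the block and with the oil libraries whose reporter matched the label. It ranged from 1 to 2 when 1 library was left out. With the block and with the matched oil libraries the gene lost was Spp1. With 1 library left out, the Spp1 log2 fold change of Tom+ against Tom- ranged from -0.041 (without Tom+ CCl4 replicate 3) to 0.73 in CCl4 and from -0.085 (without Tom+ oil replicate 1) to 0.35 in oil, and its difference between treatments from -0.17 (without Tom+ CCl4 replicate 3) to 0.60. For the counts of members called, 65 alternatives stayed within 1.5 times the reported count and 8 did not. Many of the 65 are counts of 0 that stayed at 0, as in all 14 alternatives in oil and all 19 for the difference between treatments. The tally thus says little about how stable the counts above 0 were. The calls over all genes depended on the test: between the fractions in CCl4 336 genes were called, with 538 by DESeq2 and 682 with the block, and for the difference between treatments 201, with 583 by DESeq2 and 938 with the block. The block changed no other call of a member between the fractions. Krt19, Krt7, Epcam and Cd24a lay at or near a chosen level of 3 counts, 0.0369 to 0.0829 CPM, in most libraries. In Tom+ CCl4 replicate 3 Krt19 reached 14 counts and Cd24a 26. No test between the fractions is given for these genes.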

Other observations

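The zonal genes Cyp2e1 and Lgr5, which are normally highest around the central vein, lay in opposite directions between the fractions in the 2 treatments, and both were singled out after their values were seen. Cyp2e1 was at 1519 to 3427 CPM in Tom- oil and 509 to 1583 CPM in Tom+ oil, but at 897 to 1319 CPM in Tom- CCl4 and 2014 to 2491 CPM in Tom+ CCl4. The difference between treatments was 2.14 on the log2 scale for Cyp2e1 (edgeR adjusted p = 0.0893) and 2.79 for Lgr5 (edgeR adjusted p = 0.218), and with the replicate block it was 2.22 and 3.01, both past the threshold. Without the 2 oil libraries whose reporter went against the label it was 2.80 and 4.48, both past the threshold without the block.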
